A study of Mus musculus with 8 samples.

Results

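Imprinted growth genes were examined in mouse hematopoietic stem cells: H19, Igf2, Igf2r, Grb10, Plagl1, Ascl2, Peg3, Mest, Snrpn and Ndn. They were taken by symbol from the table of array signals, and each of the 10 had exactly 1 feature among the 30802 genes with a feature of 1 symbol, so no level decided which feature stood for a gene. The genes of the Dlk1-Meg3 locus were left out of the set by its definition. The genes were chosen by name with earlier results of these arrays known, the genotype difference of the same signals included, so the differences below describe the 10 genes and are not an independent test of them as a group. Of the 10, 6 lay at or above the level filter, which kept the 15710 genes with a mean log2 signal of at least 6.17 (the median of all features), and H19, Plagl1, Mest and Ascl2 lay below it.

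The stem cells came from mice homozygous for elektra, a point mutation of the quiescence gene Slfn2 (Slfn2 elektra/elektra), and from littermates homozygous for its wildtype allele. All mice had the C57BL/6 background and were untreated, and no label states their age or sex. Cells were sorted as LSK (without lineage markers, with Sca-1 and c-Kit), CD9hi, CD48- and CD150+ after c-Kit enrichment of bone marrow, and 1 Affymetrix whole-transcript array was run for each of 4 elektra and 4 wildtype samples, from about 200 pg of RNA amplified by 12 cycles of PCR. The sample notes have marrow of 2 mice in each sample, while the series text has 4 mice per genotype, so how many mice stand behind a group of arrays is not settled.

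Signals are log2 values, array medians lay between 6.11 and 6.26, and the number of arrays limits the precision of every value. All 11 stem cell markers examined for the gate were above the filter (Kit at a mean of 11.95, Ly6a, which encodes Sca-1, at 12.03, Slamf1, which encodes CD150, at 9.90) and Cd48 was below it at 5.99. Of the 10 matched genes listed as negative for the gate, Cd48 among them, 7 lay below the filter. Ptprc at 10.04, Flt3 at 7.22 and Itgam at 6.56 lay above it. Slfn2 read 7.99 ± 0.17 and 7.66 ± 0.52 (elektra and wildtype, SD, n = 4 each), and its transcript level does not check the labels, because elektra alters the protein. Xist, the RNA of the inactive X chromosome, was low on elektra 3 (5.06) and wildtype 3 (5.37) and between 10.26 and 10.79 on the other 6 arrays. Arrays of sorted populations cannot tell fewer cells that express a gene from less RNA per cell.

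Imprinted genes are transcribed from 1 parental copy, which is fixed by DNA methylation laid down in the germ line and kept by proteins such as ZFP57. Many of them set fetal growth, with paternally expressed genes such as Igf2 and Peg3 promoting it and maternally expressed genes such as H19, Igf2r and Grb10 restraining it. Several stay active in adult mouse stem cells, where the maternal, unmethylated copy of the control region of H19 and Igf2 is known to keep the cells quiescent by restraining signalling of Igf2 through its receptor Igf1r. Plagl1 encodes a zinc finger protein that regulates other genes of this network.

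Upstream sequences were found in RefSeq (GRCm38.p6) for 9 of the 10 genes, in 18 windows of 250 bases before a transcript start. They are shown for 4 genes whose windows hold a short motif searched on both strands, as context for genes whose signals are compared below. The Plagl1 window is chr10:13090582-13090831 on the plus strand, and its capitals mark the reverse complement of TGCCGC, the hexamer bound by ZFP57. The Peg3 window is chr7:6730420-6730669 on the minus strand, with the Plagl1 motif GGGGCCCC in capitals. The Ndn window is chr7:62348027-62348276 on the plus strand and that of a distal Snrpn start is chr7:60450178-60450427 on the minus strand, both with CGCATGCG in capitals, the central letters of the NRF1 motif.
Plagl1: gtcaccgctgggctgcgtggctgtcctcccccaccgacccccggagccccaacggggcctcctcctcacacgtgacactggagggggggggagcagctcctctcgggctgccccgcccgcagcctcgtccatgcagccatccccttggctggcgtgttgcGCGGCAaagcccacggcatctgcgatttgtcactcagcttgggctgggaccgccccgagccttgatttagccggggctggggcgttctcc
Peg3: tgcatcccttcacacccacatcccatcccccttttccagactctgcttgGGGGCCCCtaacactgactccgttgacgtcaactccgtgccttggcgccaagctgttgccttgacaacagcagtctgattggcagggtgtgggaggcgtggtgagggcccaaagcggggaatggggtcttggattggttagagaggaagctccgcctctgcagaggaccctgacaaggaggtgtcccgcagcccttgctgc
Ndn: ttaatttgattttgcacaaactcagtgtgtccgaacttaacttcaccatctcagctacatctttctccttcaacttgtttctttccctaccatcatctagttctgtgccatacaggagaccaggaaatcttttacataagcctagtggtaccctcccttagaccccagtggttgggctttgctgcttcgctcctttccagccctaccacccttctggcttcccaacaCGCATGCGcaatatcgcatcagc
Snrpn: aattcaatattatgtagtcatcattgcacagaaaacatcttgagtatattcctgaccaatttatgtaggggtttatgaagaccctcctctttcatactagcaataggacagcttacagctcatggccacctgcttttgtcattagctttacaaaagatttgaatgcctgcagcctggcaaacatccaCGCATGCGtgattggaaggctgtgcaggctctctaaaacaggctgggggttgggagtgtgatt
The hexamer TGCCGC occurred upstream of 2 of the 9 genes, Plagl1 and Mest, in 3 of the 18 windows, and in 8.68% of all 32851 windows of that length. GGGGCCCC occurred upstream of Peg3 alone among the 9 genes and in 0.889% of all windows. CGCATGCG was chosen after the sequences had been read, and occurred in 4 of the 18 windows, those of Ndn and of 3 Snrpn starts, and in 1.55% of all windows. These motifs do not overlap in the windows shown, and a match of letters is a description of the window and not a bound site. The Mest windows with the hexamer, chr6:30737800-30738049 and chr6:30737803-30738052, overlap, and the 3 Snrpn windows share much of their sequence. Counts of windows are therefore not counts of independent occurrences. The members' windows held between 1 and 40 CG dinucleotides, against a median of 6 over all windows.

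The locus of Igf2 also carries Mir483, which lies inside the gene, and that of Mest carries Mir335. The mature forms, from RefSeq (GRCm38.p6), are shown because both microRNA features were on the arrays, with the seed (bases 2 to 8) in capitals and no seed shared between them. The forms of miR-483 lie at chr7:142654968-142654989 on the minus strand and chr7:142654932-142654952 on the minus strand, and those of miR-335 at chr6:30741314-30741336 on the plus strand and chr6:30741354-30741375 on the plus strand.
mmu-miR-483-5p: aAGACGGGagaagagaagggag
mmu-miR-483-3p: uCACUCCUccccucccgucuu
mmu-miR-335-5p: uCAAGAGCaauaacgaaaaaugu
mmu-miR-335-3p: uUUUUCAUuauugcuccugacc

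The growth factor locus held H19, the gene of the 10 with the clearest separation of genotypes. H19, a maternally expressed noncoding RNA that restrains growth and is the precursor of a microRNA, read 5.53, 5.75, 5.79 and 5.47 on the elektra arrays and 5.99, 6.44, 6.50 and 5.98 on the wildtype arrays. All elektra values lay below all wildtype values, and the gap between elektra 3 and wildtype 4 was the narrowest. The means were 5.64 ± 0.16 and 6.23 ± 0.28 (SD, n = 4 each), a log2 difference, elektra minus wildtype, of -0.59 (SE 0.15, 95% interval -0.91 to -0.27). On a linear scale elektra stood at 0.664 of the wildtype signal. The difference did not pass limma's adjusted threshold of 0.05 over all genes without the level filter (adjusted p = 0.414), and the exact two-sided permutation p over the 70 relabellings of the arrays was 0.0286, the smallest they can give. H19 lies below the level filter, where signals of little RNA and of none are hard to tell apart on an array.

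Igf2, the paternally expressed growth factor next to H19 on chromosome 7, read 6.13, 6.19, 6.32 and 6.00 in elektra and 6.25, 6.43, 6.56 and 6.71 in wildtype. The groups overlapped, because elektra 3 lay above wildtype 1. Igf2 differed by -0.33 (SE 0.12, 95% interval -0.59 to -0.07), with means of 6.16 ± 0.13 and 6.49 ± 0.20 (SD, n = 4 each) and a limma adjusted p of 0.371 (exact permutation p = 0.0571). With the interquartile range of each array as a covariate the difference was -0.21. Mir483, which shares the Igf2 locus, read 9.01 ± 0.23 in elektra and 9.01 ± 0.37 in wildtype (SD, n = 4 each), a difference of 0.01 (SE 0.18). Igf2as, the antisense transcript of Igf2, was at -0.09 (SE 0.12, limma adjusted p = 0.817). Mir675, the microRNA made from H19, was not analysed here.

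**Figure D1:**
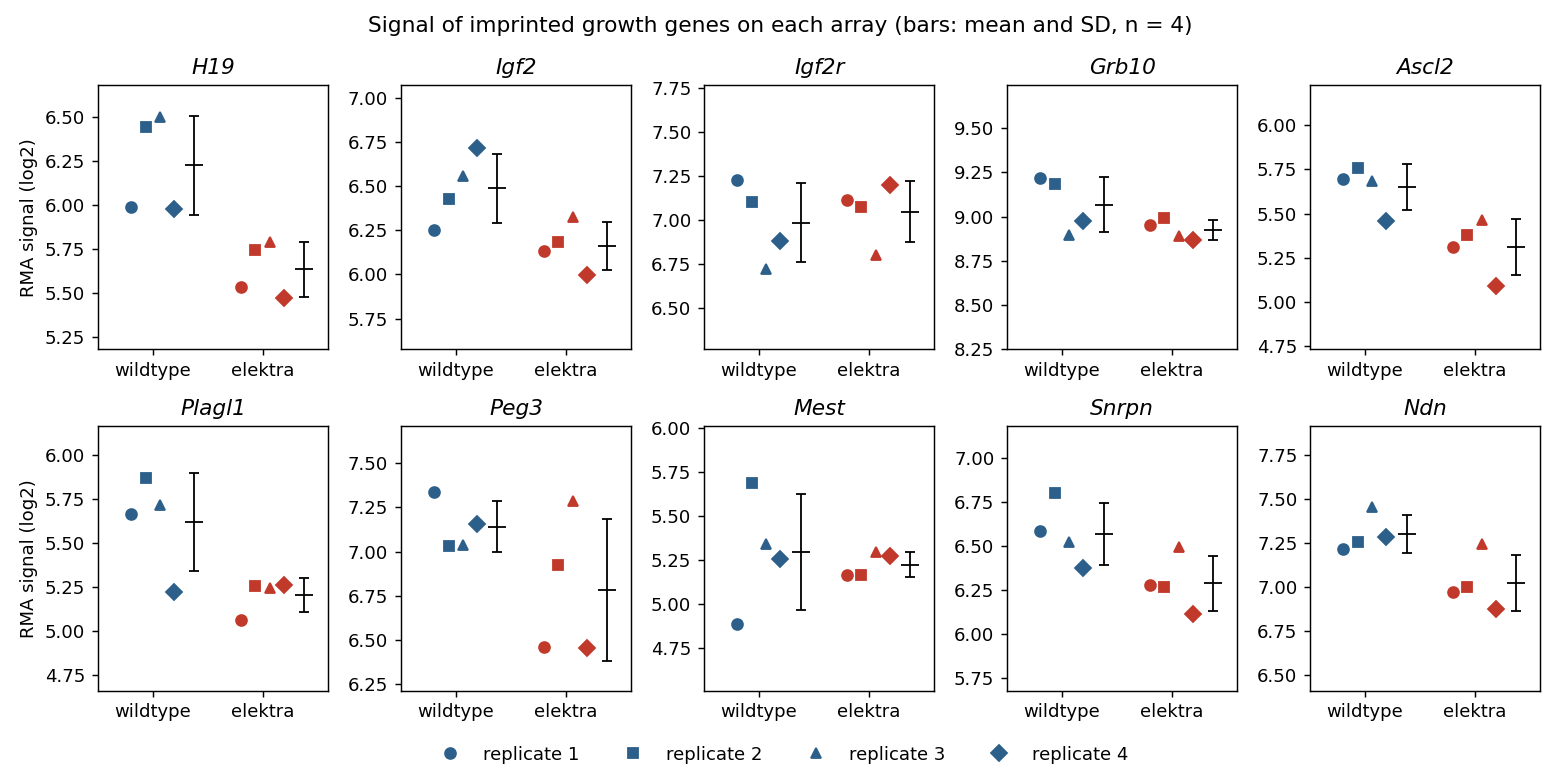
RMA log2 signal (vertical axes, each gene on its own range) of the 10 genes on each of the 8 arrays, by genotype, with marker shape for replicate number and bars for mean and SD (n = 4). H19 is the gene whose genotypes do not overlap, with elektra up to 5.79 and wildtype from 5.98, and for Igf2, Ascl2, Snrpn and Ndn elektra 3 is the elektra array that reaches into the wildtype range.

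The receptor and the adaptor of this growth pathway had differences with intervals that include 0. Igf2r, the mannose 6-phosphate receptor that takes Igf2 to the lysosome, read 7.11, 7.07, 6.80 and 7.20 in elektra and 7.23, 7.10, 6.72 and 6.88 in wildtype. It was the single gene of the 10 with a higher mean in elektra, and the lowest array of either genotype was its replicate 3. The means of 7.05 ± 0.17 and 6.98 ± 0.22 (SD, n = 4 each) gave a difference of 0.06 with an interval from -0.23 to 0.36 (SE 0.13, limma adjusted p = 0.884). The sign turned to -0.02 without wildtype replicate 3 and to -0.06 with the array interquartile range as a covariate.

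Grb10 encodes an adaptor that binds the insulin and insulin-like growth factor receptors and dampens their signal. Its elektra arrays read 8.95, 8.99, 8.89 and 8.87 and its wildtype arrays 9.22, 9.19, 8.90 and 8.97. Wildtype 1 and 2 were the high arrays, and the others lay together. Grb10 differed by -0.14 (SE 0.10, interval -0.36 to 0.08, limma adjusted p = 0.611), with means of 8.93 ± 0.06 and 9.07 ± 0.16 (SD, n = 4 each). The difference was -0.094 without wildtype replicate 1 and with arrays centred on their medians.

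Of the transcription regulators, Plagl1 read 5.06, 5.25, 5.24 and 5.26 in elektra and 5.66, 5.87, 5.72 and 5.22 in wildtype. Wildtype 4 lay within the elektra values, and the other 3 wildtype arrays lay above all of them. The difference was -0.41 (SE 0.14, interval -0.72 to -0.11), from means of 5.20 ± 0.10 and 5.62 ± 0.28 (SD, n = 4 each), and did not pass over all genes without the filter (limma adjusted p = 0.483, exact permutation p = 0.114). Ascl2, a maternally expressed basic helix-loop-helix factor needed for the mouse placenta, read 5.31, 5.38, 5.46 and 5.09 in elektra and 5.69, 5.76, 5.68 and 5.46 in wildtype. Its genotypes met at elektra 3 and wildtype 4 and were otherwise apart. Ascl2 differed by -0.34 (SE 0.11, interval -0.59 to -0.09), with means of 5.31 ± 0.16 and 5.65 ± 0.13 (SD, n = 4 each) and a limma adjusted p of 0.478 (exact permutation p = 0.0571).

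Peg3, a paternally expressed zinc finger gene whose upstream Plagl1 motif is shown above, was the most scattered of the 10 in elektra. Its elektra arrays read 6.46, 6.92, 7.29 and 6.45 and its wildtype arrays 7.34, 7.03, 7.04 and 7.15. Elektra 3 lay among the wildtype values and the other 3 elektra arrays below them. The means of 6.78 ± 0.40 and 7.14 ± 0.14 (SD, n = 4 each) differed by -0.36 with an interval from -0.75 to 0.04 (SE 0.18, limma adjusted p = 0.488). The value moved to -0.56 when elektra 3 and wildtype 3, the arrays of low Xist, were left out, and to -0.25 without elektra replicate 1 or without elektra replicate 4.

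Mest, a paternally expressed gene for an enzyme-like membrane protein, read 5.17, 5.17, 5.30 and 5.27 in elektra and 4.89, 5.69, 5.34 and 5.26 in wildtype. Wildtype 1 and wildtype 2 lay on opposite sides of all elektra arrays. The difference of -0.07 (SE 0.15, interval -0.40 to 0.26, limma adjusted p = 0.919) became 0.06 without wildtype replicate 2 and 0.15 with the array interquartile range as a covariate. Mir335, hosted by Mest, was far under the filter at 3.80 ± 0.27 in elektra and 3.98 ± 0.14 in wildtype (SD, n = 4 each), a difference of -0.18 (SE 0.14).

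Snrpn and Ndn belong to a paternally expressed domain of chromosome 7, whose human counterpart is lost in Prader-Willi syndrome. Snrpn encodes the splicing protein SmN and read 6.28, 6.27, 6.49 and 6.11 in elektra and 6.59, 6.80, 6.52 and 6.38 in wildtype. Elektra 3 lay above wildtype 4, and the other elektra arrays lay below all wildtype arrays. Its difference was -0.28 (SE 0.12, interval -0.54 to -0.02, limma adjusted p = 0.417, exact permutation p = 0.0571), from means of 6.29 ± 0.16 and 6.57 ± 0.18 (SD, n = 4 each).

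Ndn encodes necdin, a growth suppressor of the MAGE family that is linked to quiescence of mouse stem cells. It read 6.97, 7.00, 7.24 and 6.87 in elektra and 7.21, 7.25, 7.45 and 7.28 in wildtype. Again elektra 3 alone reached the wildtype range. Ndn differed by -0.28 (SE 0.11, interval -0.51 to -0.05, limma adjusted p = 0.383, exact permutation p = 0.0571), with means of 7.02 ± 0.16 and 7.30 ± 0.11 (SD, n = 4 each). Other genes of the domain lay closer to 0, Peg12 at -0.07 (SE 0.09) and Magel2, which was below the filter, at -0.04 (SE 0.10).

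Across the 10 genes, 9 had a lower mean in elektra, and the median difference was -0.30. Among all genes a lower mean was found for 46.9% of those above the filter, whose median difference was 0.01, and for 56.8% without the filter, whose median was -0.03. None of the 10 passed limma's adjusted threshold, which 0.0382% of the genes above the filter and 0.00974% of all genes passed. At an unadjusted p of 0.05 the lower genes were H19, Igf2, Plagl1, Ascl2, Snrpn and Ndn, 3 of the 6 above the filter and 3 of the 4 below it, beside 3.95% and 4.70% of all genes. Higher in elektra at that p were 0 of the 10, beside 7.02% and 4.02%. Genotypes without overlap, lower in elektra, were seen for H19 alone, beside 2.37% of genes above the filter and 2.83% without it, and 0 of the 10 were higher without overlap, beside 3.90% and 2.26%. As the names were proposed with these results known, the shares are given side by side and no more is read from them.

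Over all genes the genotype difference varied with signal level, and the signals of most of the 10 genes varied with array spread. Whether the differences of the 10 genes follow their level was not tested. Without the filter, genes of the second level quartile had a median difference of -0.06 with 69.2% lower in elektra, and genes of the top quartile 0.05 with 36.7% lower. The interquartile range of an array was 2.67, 2.60, 2.49 and 2.62 in elektra and 2.64, 2.41, 2.49 and 2.48 in wildtype. Of the 10 genes, 9 correlated negatively with it over the 8 arrays, with Pearson's r from -0.11 for Grb10 to -0.79 for Mest (exact permutation p = 0.00818, Benjamini-Hochberg adjusted over the 10 genes 0.0818). For Mest Spearman's rho was -0.755 (exact permutation p = 0.0382, adjusted 0.127), and r was -0.68 without the 2 arrays farthest from the median range. Over all genes r was negative for 44.8% with the filter, with a median of 0.08, and for 59.3% without, with a median of -0.16. As a covariate the interquartile range left H19 at -0.43 and Ascl2 at -0.30 as the lower genes at an unadjusted p of 0.05. The background was then 3.40% with the filter and 3.76% without. The part of array spread in the differences was not tested further.

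**Figure D2:**
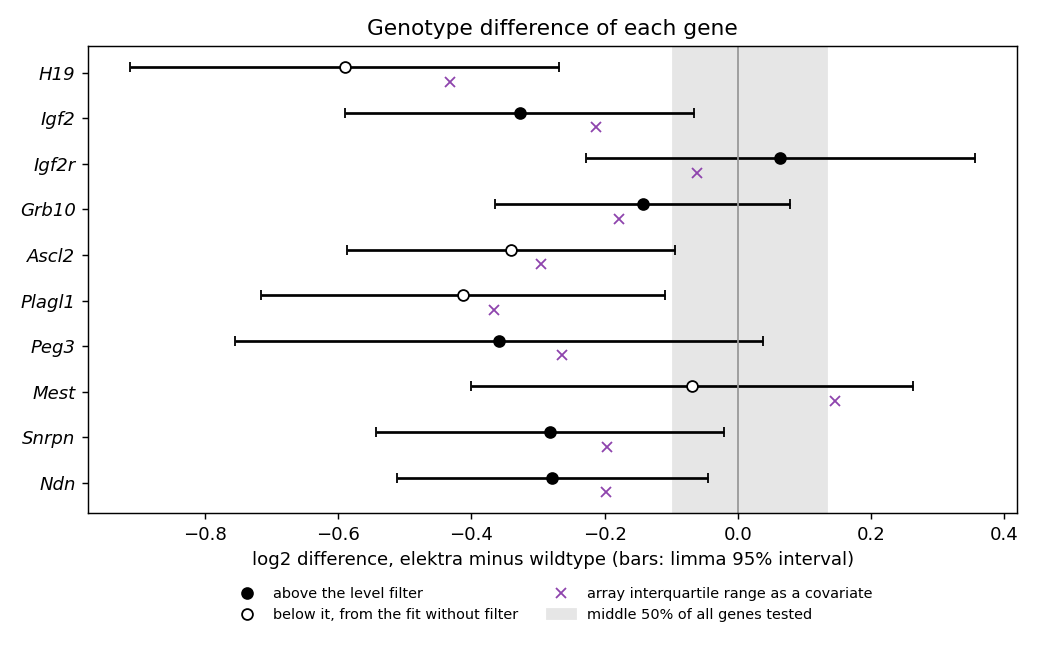
Log2 difference, elektra minus wildtype (horizontal axis), of the 10 genes with limma's 95% interval, filled where the gene passed the level filter and open where it was read from the fit without filter. Crosses give the difference with array interquartile range as a covariate, and the grey band covers the middle 50% of all genes tested. H19 at -0.59 lies farthest from 0, and Igf2r at 0.06 is the 1 gene on the higher side.

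Within a genotype, the same arrays were often the high or the low ones. Elektra 3 was the highest elektra array for 7 of the 10 genes (H19, Igf2, Peg3, Mest, Ascl2, Snrpn and Ndn), and elektra 4 was the lowest for 7 (H19, Igf2, Peg3, Grb10, Ascl2, Snrpn and Ndn). In wildtype the extremes were shared out, with wildtype 2 highest for 4 genes (Plagl1, Mest, Ascl2 and Snrpn) and wildtype 4 lowest for 4 (H19, Plagl1, Ascl2 and Snrpn). Elektra 3 had the highest array median (6.21) and the lowest interquartile range (2.49) of the elektra arrays. Wildtype 2 had both in wildtype (6.26 and 2.41). How often these arrays are extreme over all genes was not computed, so the counts are not shown to be particular to the 10 genes. On both arrays of low Xist, elektra 3 and wildtype 3, H19 and Ndn were the highest of their genotype and Igf2r the lowest. Without elektra replicate 4, 3 genes in place of 6 were lower at an unadjusted p of 0.05, namely H19, Plagl1 and Ascl2.

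Covariation was computed for all 45 pairs over the 8 arrays. H19 separates the genotypes, so its pairs are given only as deviations from the genotype means. In the other 36 pairs Pearson's r was positive in 27, with a median of 0.44, and on deviations from the genotype means in 24, with a median of 0.19. Over all 123394195 pairs of the 15710 genes above the filter 50.1% were positive, with a median of 0.001. That background holds no gene below the filter, where Plagl1, Mest and Ascl2 lie, so it is not matched to the pairs of these genes. The genes share arrays and array spread, so these medians are descriptions.

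Ascl2 and Snrpn moved together most closely, with r = 0.94 (exact permutation p = 0.000868, Benjamini-Hochberg adjusted over 45 pairs 0.0391) and Spearman's rho = 0.976 (exact permutation p = 0.000397, adjusted 0.00893). Without elektra 4 and wildtype 2, the arrays farthest from the median of Ascl2, r was 0.90, and on deviations from the genotype means it was 0.89. Elektra 4 was the lowest array and wildtype 2 the highest for both genes. Igf2 and Ndn had the same rho, 0.976 (exact permutation p = 0.000397, adjusted 0.00893), while r = 0.86 did not pass the adjustment (exact permutation p = 0.00699, adjusted 0.0564). Their r was 0.95 without elektra 4 and wildtype 4, and 0.67 on deviations. The permutation tests of all pairs ignored genotype, so a genotype difference shared by both genes enters r, rho and their p-values. The correlations of deviations were not tested.

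Igf2r ran against most of the others, negative with Ndn at r = -0.71 (exact permutation p = 0.0488, adjusted 0.157; rho = -0.714, exact permutation p = 0.0576, adjusted 0.283) and with Igf2 at r = -0.69 (exact permutation p = 0.0620, adjusted 0.186; rho = -0.667, exact permutation p = 0.0831, adjusted 0.283). Neither passed. On deviations from the genotype means these were -0.91 and -0.85. Without elektra 3 and wildtype 3, where Igf2r was lowest, its r with Ndn was -0.44. Without elektra 4 and wildtype 4 its r with Igf2 was -0.65. Xist was low on elektra 3 and wildtype 3, and Igf2r correlated with it at r = 0.85 (exact permutation p = 0.00389, not adjusted). That r was 0.76 without these 2 arrays. Ndn correlated with Xist at r = -0.60 (exact permutation p = 0.145, not adjusted), and at -0.29 without them. On deviations the r with Xist was 0.87 for Igf2r, -0.95 for Ndn and -0.52 for Igf2.

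The r of 0.75 between Peg3 and Ndn (exact permutation p = 0.0374, adjusted 0.155; rho = 0.595, exact permutation p = 0.132, adjusted 0.283) rested on elektra 1 and elektra 4, where Peg3 was lowest, and was 0.21 without them. Snrpn and Ndn, neighbours in 1 domain, had r = 0.73 (exact permutation p = 0.0392, adjusted 0.155; rho = 0.667, exact permutation p = 0.0831, adjusted 0.283), and 0.42 on deviations. The deviations of H19 correlated most with those of Ascl2 at 0.69, Plagl1 at 0.66 and Ndn at 0.64. With those of Igf2, its partner at the locus, they correlated at 0.27, and with those of Igf2r at -0.53.

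**Figure D3:**
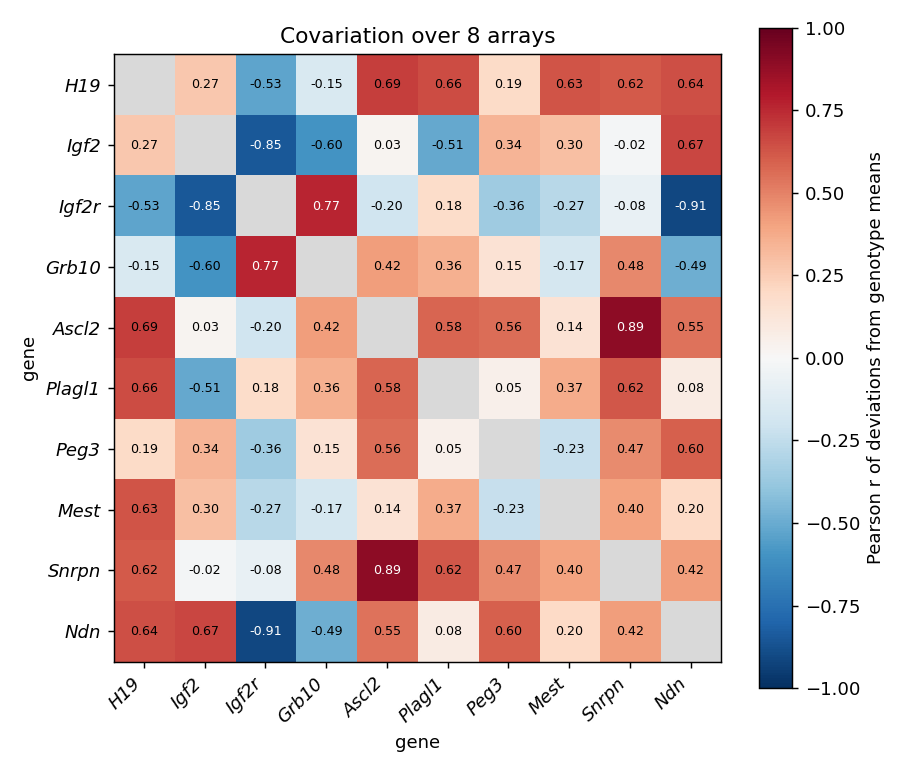
Pearson's r between genes (rows and columns), computed on deviations from the genotype means over 8 arrays, with colour from -1 (blue) to 1 (red). The row of Igf2r holds the strongest negative values, -0.91 with Ndn and -0.85 with Igf2, and Ascl2 with Snrpn holds the highest positive value, 0.89. On the arrays of low Xist, elektra 3 and wildtype 3, Igf2r was the lowest and Ndn the highest of their genotype.

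**Figure D4:**
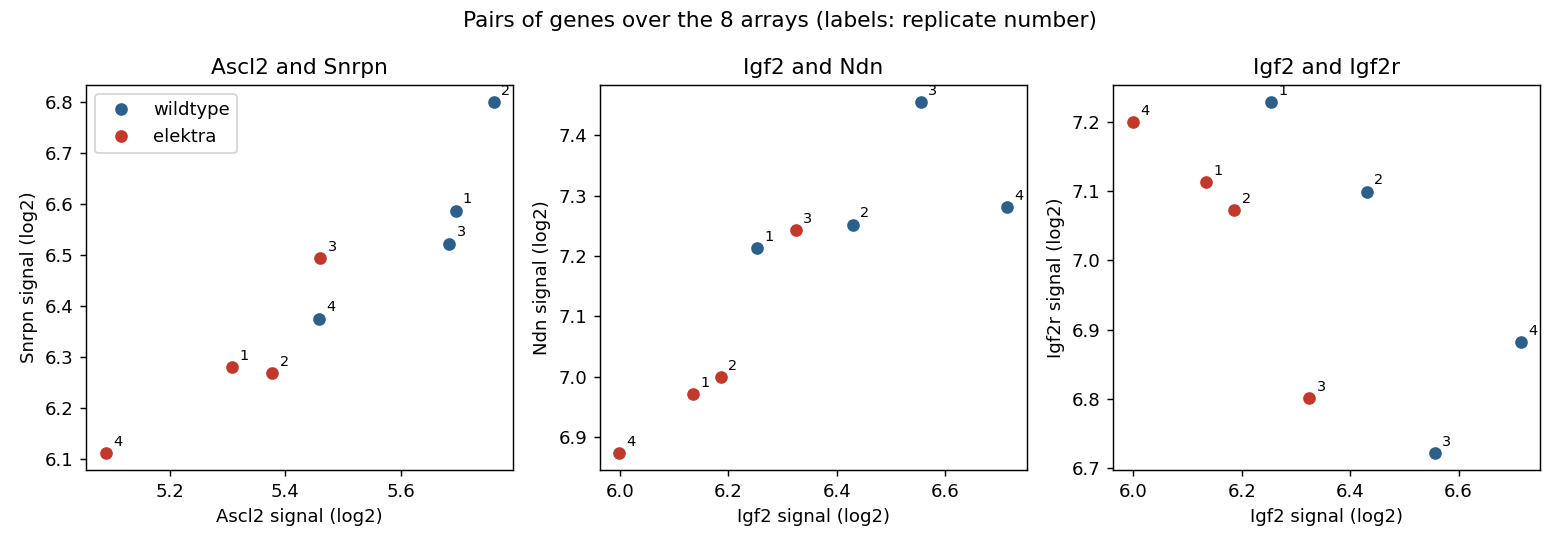
Log2 signals of 3 pairs of genes, 1 point per array, coloured by genotype and labelled by replicate number. Ascl2 and Snrpn run together from elektra 4 (lowest) to wildtype 2 (highest), Igf2 and Ndn order the arrays nearly alike, and in elektra Igf2r is lower the higher Igf2 is.

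Genes most like a member over the arrays were read off for the 3 members of highest mean signal, among 15709 genes and with no statement on function. Ndn had 69 genes with r over 0.9, led by K230010J24Rik at 0.983, Junb, an immediate early transcription factor, at 0.982 and Gm26881 at 0.963. Igf2r had 26, among them Nsfl1c at 0.976 and Ap2b1, a subunit of the clathrin adaptor that internalizes receptors, at 0.961. Grb10 had 11, led by 1700058P15Rik at 0.953, Stpg1 at 0.948 and Pard3b, a polarity gene, at 0.936. The differences of Junb and Gm26881 were -0.48 and -0.33.

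As lists, other imprinted genes had medians near that of all genes. Of the neighbours in the members' own domains, 31 of 35 listed genes were matched and 20 passed the filter. Among these 20, 11 had a lower and 9 a higher mean in elektra, 0 passed the adjusted threshold, and at an unadjusted p of 0.05 there was 1 lower, Cd81, and 1 higher, Slc22a3, with a median of -0.04 against 0.01 over all genes. Slc22a3, an organic cation transporter next to Igf2r, read 8.56, 8.35, 7.76 and 8.50 in elektra and 7.64, 7.69, 7.13 and 7.96 in wildtype, and replicate 3 was its lowest array in both genotypes. Its difference was 0.69 (SE 0.20, limma adjusted p = 0.316, exact permutation p = 0.0571), while Airn, the noncoding RNA that overlaps Igf2r and silences its paternal copy in mouse, was at -0.22 (SE 0.12, limma adjusted p = 0.535).

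Cd81, a tetraspanin in the cluster of Ascl2, was at -0.23 (SE 0.10, limma adjusted p = 0.435). Cdkn1c, the cell cycle inhibitor p57 of that cluster, read 7.50 ± 0.34 in elektra and 7.82 ± 0.21 in wildtype (SD, n = 4 each), a difference of -0.32 (SE 0.17, limma adjusted p = 0.520), and the noncoding RNA Kcnq1ot1 was at -0.04 (SE 0.14). Ins2, below the filter, was at -0.22 (SE 0.10, limma adjusted p = 0.564). Of 34 matched genes listed as imprinted elsewhere 22 passed the filter, with 14 lower and 8 higher means and a median of -0.04. Of them 0 passed the adjusted threshold. The list includes Igf2as, the antisense transcript of Igf2, which lies in a member's own domain and was at -0.09 (SE 0.12). Gab1, a docking protein of receptor tyrosine kinases, was at -0.53 (SE 0.16, limma adjusted p = 0.321, exact permutation p = 0.0571), the 1 gene of that list at an unadjusted p of 0.05. Peg10 was at -0.15 (SE 0.10) and Gnas, below the filter, at -0.01 (SE 0.09).

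The insulin-like growth factor pathway held the gene of smallest p among these lists outside the Dlk1-Meg3 locus. Igf2bp2, which encodes a protein that binds Igf2 messenger RNA, read 6.84, 7.43, 7.52 and 7.00 in elektra and 8.52, 8.35, 8.55 and 7.89 in wildtype. The genotypes did not overlap, and the difference was -1.13 (SE 0.19), with a limma adjusted p of 0.0844 that missed the threshold (exact permutation p = 0.0286). Igf1r, the receptor through which Igf2 signals, read 9.04, 9.01, 8.92 and 9.15 in elektra and 9.36, 9.38, 9.31 and 9.43 in wildtype, also without overlap. Its difference was -0.34 (SE 0.09, limma adjusted p = 0.268, exact permutation p = 0.0286).

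Of the 36 genes of that pathway 27 passed the filter, with 12 lower and 15 higher means and a median of 0.03. Igf2bp2, Igf1r and Igfbp6, a binding protein that prefers Igf2, were lower at an unadjusted p of 0.05, 0 were higher, and 0 passed the adjusted threshold. Igfbp6 was at -0.28 (SE 0.11, limma adjusted p = 0.402) and the insulin receptor Insr at -0.13 (SE 0.12, adjusted p = 0.716). Of 14 partners of Igf2r in mannose 6-phosphate sorting 13 passed the filter, with a median of 0.09 and 0 at an unadjusted p of 0.05 in either direction. Of these 13, 4 had lower and 9 higher means. Gga1 at -0.15 (SE 0.09) and Gga3 at -0.13 (SE 0.09) were lower without overlap, beside 2.37% of genes above the filter, and 0 were higher without overlap. Of 17 imprint maintenance factors above the filter 4 had lower and 13 higher means, with a median of 0.10. Uhrf1, which brings Dnmt1 to replicated DNA, was the 1 past an unadjusted p of 0.05, higher at 0.43 (SE 0.15, limma adjusted p = 0.359), and 0 of the 17 passed the adjusted threshold.

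**Figure D5:**
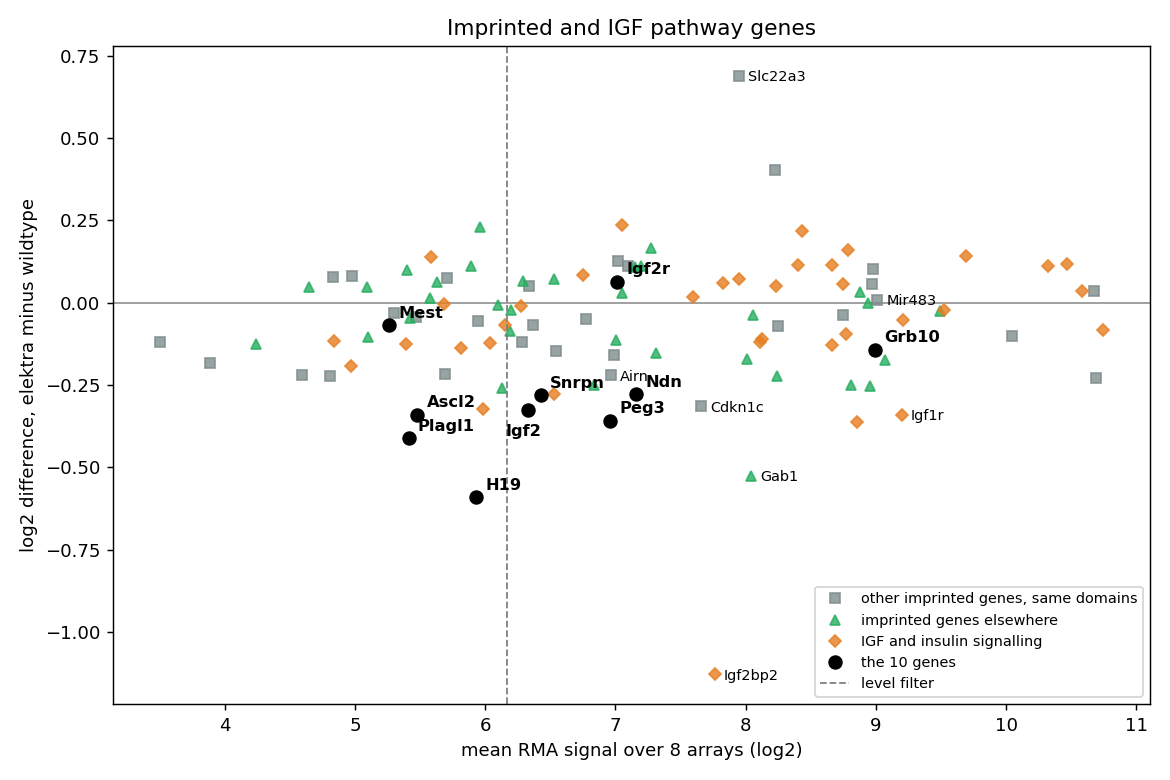
Log2 difference, elektra minus wildtype (vertical axis), against mean log2 signal over the 8 arrays (horizontal axis) for the 10 genes, for other imprinted genes of their domains, for imprinted genes elsewhere (Xist not drawn) and for genes of insulin-like growth factor signalling, with the level filter dashed. Igf2bp2 at -1.13 and Slc22a3 at 0.69 are the lowest and highest points. The genes drawn as imprinted elsewhere include Igf2as of the Igf2 locus.

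In the Dlk1-Meg3 locus all 8 listed genes had a lower mean in elektra, beside 46.9% of genes above the filter and 56.8% without it. Of the 8, 4 lay below the filter, among them Rtl1 at -0.01 and Dio3 at -0.07. Meg3 was at -0.83 (SE 0.15, limma adjusted p = 0.119). The small RNA gene Gm24564, at -2.29 (SE 0.31, limma adjusted p = 0.0423), was the 1 of the 8 past the adjusted threshold. Of genes above the filter 0.0382% passed it. Gm24564 was listed after its value was seen, so its call is not an independent result for the locus. The arrays of these 8 genes are those of the 10 genes, so the loci are set side by side.

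Lists of markers used for other marrow cells were read beside these values, since stromal and endothelial cells also express several of the 10 genes. Of these markers Emcn at a mean of 8.29, Pecam1 at 8.67, Itga2b at 8.66 and Pf4 at 9.10 read near the gate markers Tek at 8.58 and Procr at 9.05. The arrays cannot tell whether stem cells or other cells gave these signals. The mean of the 15 stromal and endothelial markers lay between 6.36 and 6.69 on the elektra arrays and between 6.45 and 6.58 on the wildtype arrays. Of 8 such markers above the filter, Pdgfrb at -0.33 (SE 0.11), Col3a1 at -0.31 (SE 0.11) and Emcn at -0.39 (SE 0.17) were lower at an unadjusted p of 0.05 and Pecam1 at 0.23 (SE 0.09) was higher. Col1a2 was lower without overlap at -0.21 (SE 0.11). Cdh5 had a higher mean at 0.42 (SE 0.19), with overlap, and of the 8 markers 5 had lower and 3 higher means. Bgn at a mean of 9.95, Pdgfrb at 7.61, Col1a2 at 6.96, Col1a1 at 6.80 and Col3a1 at 6.35 lay above the filter, while Dcn at 4.24, Kitl at 4.61, Lepr at 4.84 and Pdgfra at 5.35 were among the 7 of 15 below it. Among megakaryocyte markers Pf4 at 0.61 (SE 0.12, limma adjusted p = 0.142) and Itga2b at 0.39 (SE 0.09, adjusted p = 0.195) were higher without overlap. The other 4 lay at 0.11 (Vwf), 0.05 (Ppbp), 0.01 (Gp9) and -0.10 (Gp1ba). Nkg7, a cytotoxic granule gene of NK and T cells, was higher without overlap at 0.57. The other T and NK markers lay at -0.01 (Cd3d), 0.06 (Cd3g), 0.08 (Cd2) and -0.01 (Gzmb). Ctsg, a granulocyte protease, was lower without overlap at -0.47, in a list of 10 granulocyte and monocyte markers with 6 lower and 4 higher means. The part of such cells in the differences of the 10 genes was not tested.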

How the data were processed

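Total RNA of sorted stem cells was measured on 8 arrays, 4 per genotype. The authors' log2 signals come from RMA in Affymetrix Expression Console 1.4, per the submitters' processing notes. No source used here names the array design or annotation release. The deposited workbook holds these log2 signals for 33793 features (32074 with 1 gene symbol, 1591 with none, 128 with several), the authors' means, log2 ratio, fold change and unadjusted p-value, which were not used for tests. A deposited series table of 41345 features, also log2, differed by at most 0.158 for shared features. Of the 32074 features, 27802 matched RefSeq (GRCm38.p6), used for symbols and sequences.

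Genotypes were compared, elektra minus wildtype, by limma 3.58.1 (R 4.3.3; functions lmFit and eBayes), two-sided, with Benjamini-Hochberg adjustment over all genes tested and a threshold of 0.05. Features of 1 symbol with a mean of at least 6.17 were tested, the feature of highest mean per symbol, which left 15710 genes. Members and listed genes under that level were read from a fit without the filter (30802 genes). The procedure was tested on simulated data. Correlations used exact permutation over pairings of the 8 arrays, adjusted over 45 pairs. Python 3.11.15, numpy 2.4.6 and scipy 1.17.1 were used.

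The members and the gene lists were chosen with earlier results of these data known. Named were the 10 members, a fixed set of related genes (Cdkn1c, Igf1r, Insr, Airn, Kcnq1ot1, Peg12, Magel2, Gnas, Peg10, Igf2bp2, Meg3, Slfn2, Xist and 3 microRNA genes), up to 4 genes of smallest p per list at an unadjusted p of 0.05 or less, and the 3 genes most correlated with each of the 3 members of highest mean. Some genes that this rule names are not reported here. Chosen after their values were seen were Gm24564, Igf2as, the array-wise extremes, the motif CGCATGCG and the markers named. Marker lists of erythroid, granulocyte and monocyte, B, T and NK cells were also read. Their means over 4 arrays, elektra and wildtype, were 6.75 and 6.64, 6.58 and 6.66, 5.66 and 5.69, and 5.82 and 5.68. Alternatives changed the filter, the normalization, the variance model, array weights, the features averaged, the source table, a replicate block, array spread as a covariate, arrays of low Xist and each replicate in turn.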

Additional observations from a re-analysis of the deposited data

Results flagged for a closer look

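Plagl1 on elektra 1 read 5.06, apart from the other 3 elektra arrays at 5.25, 5.24 and 5.26. Its gap to the nearest of them took a share of 0.914 of the range of the group, above the critical value of Dixon's test. Of 20 groups of 4 arrays examined this was the 1 so marked, and chance marks about 1 in 20.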

How the results depend on the processing

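The 10 differences gave 177 values over 19 alternative settings, of which 173 kept the direction and 4 reversed. Igf2r went to -0.062 with array interquartile range as a covariate and to -0.023 without wildtype replicate 3, and Mest to 0.15 with the covariate. Leaving out 1 replicate moved Mest between -0.20 (without wildtype replicate 1) and 0.062 (without wildtype replicate 2), and Igf2r between -0.023 and 0.15. The cause was not tested. None of the 10 passed the adjusted threshold under any of these settings, and the lowest adjusted p was 0.264, for Igf2. H19 ranged from -0.67 to -0.43, Igf2 from -0.41 to -0.21, Peg3 from -0.56 to -0.25 and Grb10 from -0.20 to -0.094. The count of lower members at an unadjusted p of 0.05, 6 of 10, ranged from 2 (array interquartile range as a covariate) to 7 (without elektra replicate 3) over settings that tested all 10.

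Over all genes, 6 passed the adjusted threshold, against 3 without the filter, 13 with the stricter filter (7946 genes tested), 3 with arrays centred on their medians, 18 with trend and robust eBayes, 0 with array interquartile range as a covariate (limma, 1244 at an unadjusted p of 0.05), 2 without the arrays of low Xist and 0 to 4 when 1 replicate was left out. Under centring the median of all genes was 0.06 in place of 0.01. With the replicate block 0 genes passed (limma, 1848 at an unadjusted p of 0.05). Arrays of the same replicate number had correlations of deviations of 0.14, 0.02, 0.13 and -0.0017, and arrays of different numbers between -0.22 and 0.14. Not every array correlated best with its own number, and the numbers are not taken as pairs. These values do not exclude pairing, and both arrays of low Xist bear the number 3. The median r over the 36 pairs without H19, 0.44, was 0.19 on deviations from the genotype means and 0.52 without the arrays of low Xist. With 4 arrays per genotype, the median standard error of a difference was 0.12, and differences near that size cannot be told from 0.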
